A study of Mus musculus with 6 samples.

Results

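The genes followed here are 30 genes of striated muscle, read in stomach RNA of E13.5 mouse embryos, which are in mid-gestation. They were taken from a fixed list of 30 symbols, each represented by the probe set annotated to that symbol alone with the highest mean signal. All 30 were found among the 19938 genes of the array, each with 1 probe set. The list holds regulators of the myogenic lineage, the actins, myosins and troponins of the sarcomere, its giant and accessory proteins, subunits of the muscle acetylcholine receptor, and muscle creatine kinase. The stomachs came from 3 wild type samples and 3 samples of genotype Nkx3.2Cre;R26-SmoM2, called SmoM2 here, with 1 array for each. SmoM2 is a form of the hedgehog transducer Smoothened that signals without ligand. It is expressed from the Rosa26 locus in cells where Cre, under the control of Nkx3-2, has been active. Nkx3-2 is a gene of the stomach mesenchyme and also of the embryonic sclerotome. The labels do not say whether the wild type embryos carried either allele, or whether an array held 1 embryo or a pool, so the spread between arrays may be partly technical.

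Striated muscle builds sarcomeres, in which thin filaments of actin slide along thick filaments of myosin and troponin sets the response to calcium. Skeletal muscle arises from Pax3- and Pax7-expressing precursors through Myf5, Myod1, Myog and Myf6, whereas the heart uses other regulators for an overlapping set of sarcomere genes. The muscle wall of the stomach is smooth muscle, which uses Myocd and its own actin and myosin genes. Skeletal muscle is not known as a part of the stomach wall at this stage.

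The question for these genes was how bright they were in this tissue, whether they moved together over the arrays, and whether they differed between SmoM2 and wild type. All signals are RMA values on the log2 scale. They depend on the probes as well as on the transcript, so signals of different genes do not rank their amounts of RNA. Each array averaged all cell types, and more cells of a type cannot be told apart from more RNA per cell.

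Markers of stomach and of hedgehog signalling were read first. Barx1, a homeobox gene of stomach mesenchyme, had signals from 12.42 to 12.72. Hhip, a hedgehog target, lay from 10.36 to 10.49 in wild type and from 11.67 to 11.73 in SmoM2. Y-linked genes (Eif2s3y, Kdm5d and Uty) had mean signals of 10.37 and 9.92 in wild type 1 and 2 and from 8.71 to 9.27 in the other 4 arrays, so the make-up by sex differed between arrays. Xist, the RNA of the inactive X chromosome of females, read 7.11 in wild type 1, 11.94 in wild type 2 and from 11.43 to 12.37 in the other 4 arrays. Wild type 2 thus had high signals of both kinds, and Y-linked signals were graded over the other arrays with high Xist. Whether any of these arrays held a pool of embryos was not tested.

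Most of the 30 genes were dim. Their mean signals over the 6 arrays ran from 7.15 for Myl1 to 9.87 for Actc1, with a median of 8.43, and 18 of the 30 lay under the median of all probe sets, 8.58. As a view of how dim probe sets look on these arrays, 1194 olfactory and vomeronasal receptor genes, which the stomach is not known to express, had a median of 6.27, a 95th percentile of 8.05 and a 99th percentile of 8.75. By that scale 9 members were at or under the 95th percentile of the receptor genes and 11 were above the 99th. Another reference, of 27 photoreceptor genes, which was added after the data were seen, ran from 6.46 to 9.68 with a median of 7.75. These ranges overlap, and no detection call was available, so a signal in this range does not show that a muscle gene was expressed.

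**Figure D1:**
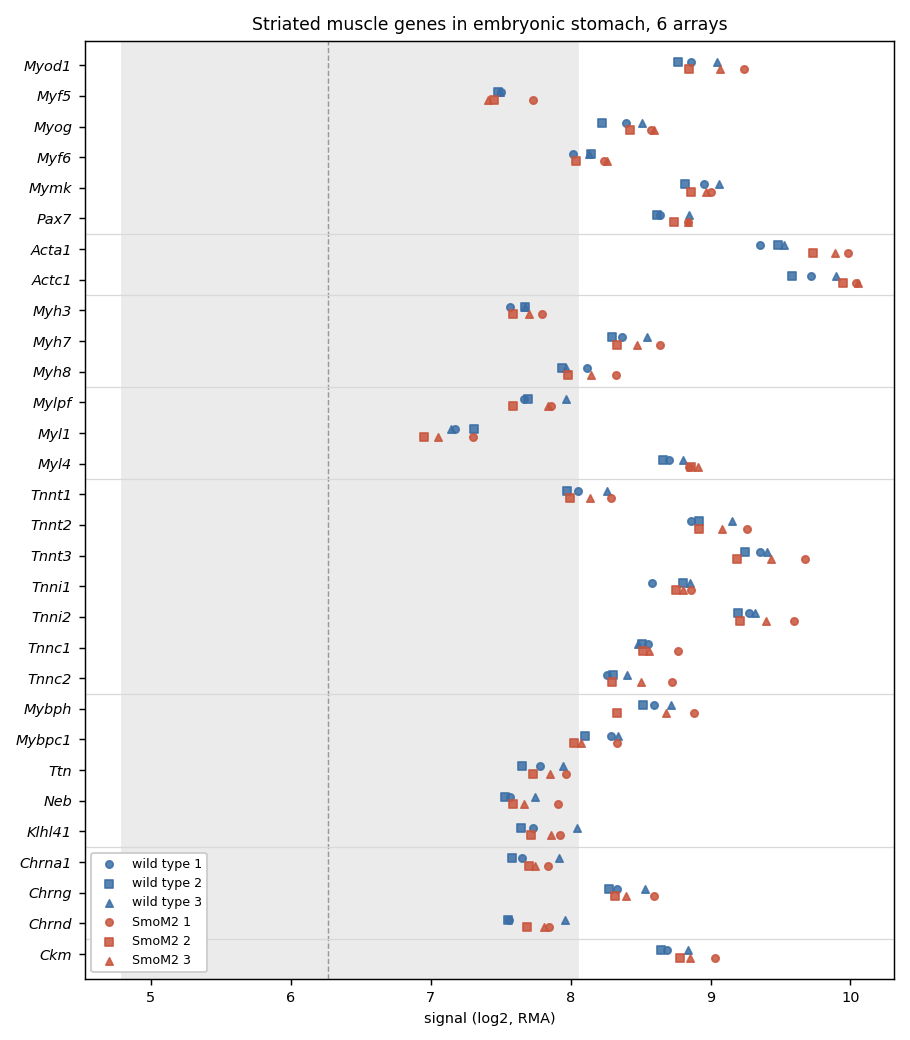
Signal (log2, RMA) of each of the 30 striated muscle genes on each of the 6 arrays, grouped by role. Blue marks are the 3 wild type arrays and red marks the 3 SmoM2 arrays, and the grey band spans the 5th to 95th percentile of 1194 olfactory and vomeronasal receptor genes (4.79 to 8.05) and the dashed line is their median, 6.27. Acta1 and Actc1 are at the right of the plot, and their red marks lie to the right of their blue marks.

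None of the 30 genes passed the threshold of the comparison (limma adjusted p under 0.05 over all genes), against 0.983% of the 19938 genes. For the full set of genes 0.326% passed as higher and 0.657% as lower in SmoM2. At an unadjusted p under 0.05 there were 2 members, Acta1 and Actc1, while 10.5% of all genes reached that level. In 3 of the 30 members, Acta1, Actc1 and Myl4, each SmoM2 array was above each wild type array, against 5.64% of all genes. In 0 members was each SmoM2 array below each wild type array, against 10.1% of all genes. Changes were positive in 26 of the 30, with a median log2 change of 0.08 (SmoM2 minus wild type), against 50.8% positive and a median of 0.00 over all genes. The photoreceptor genes had 23 of 27 positive changes and a median of 0.06.

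**Figure D2:**
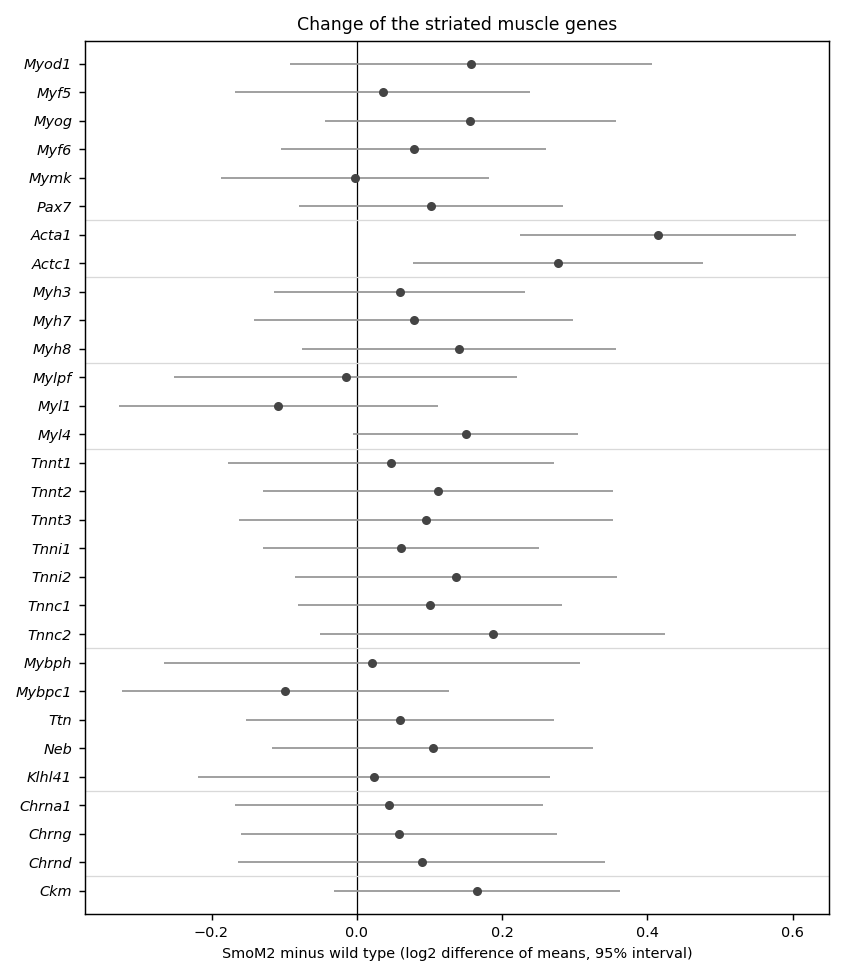
Change of each of the 30 genes, as the log2 difference of group means (SmoM2 minus wild type, 3 arrays each), with its 95% interval from limma. The intervals of 28 genes include 0; those of Acta1 (0.22 to 0.60) and Actc1 (0.08 to 0.48) do not.

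The precision set by 3 arrays a group was fairly even over the members, with standard errors from 0.07 to 0.13 on the log2 scale. For 29 of the 30 the upper 95% bound was under a 1.5-fold increase, the exception being Acta1, and for all 30 the lower bound was above a 1.5-fold decrease. These bounds hold for the signals. Since most members are dim and a signal in that range does not show expression, they do not bound changes in the transcripts. Data were also simulated with the spread of these arrays and with noise drawn separately for each gene. There the same fit recovered 90% of genes changed by 0.5 and 10% of those changed by 0.25. Shifts as small as 0.25 were thus mostly missed in the simulation. Genes of the real arrays shared deviations, so these rates may not hold for them.

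Acta1, which encodes the skeletal muscle actin, had the largest difference. Its signals were 9.35, 9.48 and 9.52 in the wild type arrays and 9.98, 9.74 and 9.89 in SmoM2. The lowest SmoM2 array stood above the highest wild type array, and within SmoM2 array 1 was the highest. The difference was 0.41 (SE 0.08, 1.33-fold), with an adjusted p of 0.0635 in limma, just short of the threshold. Without SmoM2 2 it passed (0.48, adjusted p = 0.0358), as it did with only genes above the median probe set (adjusted p = 0.0339) and with an intensity trend in the variance model (adjusted p = 0.0383). Without wild type 1 or SmoM2 3 the adjusted p was 0.301 and 0.274.

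Actc1 encodes the cardiac actin, which embryonic skeletal muscle also makes. It read 9.72, 9.58 and 9.90 in wild type and 10.04, 9.95 and 10.05 in SmoM2. The groups did not overlap, but the highest wild type array and the lowest SmoM2 array were close. The difference was 0.28 (SE 0.09, 1.21-fold, limma adjusted p = 0.261).

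The promoters of both actin genes are shown because these genes differed most between the groups and because the CArG box, the binding motif of serum response factor, the DNA-binding partner of Myocd, was searched for in them. The 250 bases before the transcription start were taken from RefSeq (GRCm38.p6), and capitals mark exact matches to the CArG consensus. Both genes lie on the minus strand, and the sequences read 5′ to 3′ towards the start, at chr8:123894776-123895025 for Acta1 and chr2:114052876-114053125 for Actc1.
Acta1: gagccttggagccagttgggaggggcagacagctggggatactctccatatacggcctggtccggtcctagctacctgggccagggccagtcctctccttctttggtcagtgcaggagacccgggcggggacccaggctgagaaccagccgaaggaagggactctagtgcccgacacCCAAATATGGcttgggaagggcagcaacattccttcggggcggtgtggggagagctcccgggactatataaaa
Actc1: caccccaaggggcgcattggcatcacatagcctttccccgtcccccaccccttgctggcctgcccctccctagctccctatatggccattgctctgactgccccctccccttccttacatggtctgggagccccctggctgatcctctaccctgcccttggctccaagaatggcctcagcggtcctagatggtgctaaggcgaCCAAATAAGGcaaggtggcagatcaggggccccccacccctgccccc

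Each window held 1 exact CArG box, beginning 73 bases before the start in Acta1 and 47 bases before it in Actc1. Near matches, which both windows also hold, were not counted. RefSeq promoter windows were at hand for 23 of the 30 members, and Acta1 and Actc1 were the 2 of these 23 with an exact CArG box on either strand. Of all 27025 genes with a promoter window of this length 1.62% held it, and of all 32851 windows 1.47%. A match describes the letters and is not evidence of binding.

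The actin genes of smooth muscle rose in SmoM2. Acta2, the vascular and visceral smooth muscle actin, read 11.82, 11.89 and 11.93 in wild type and 12.38, 12.18 and 12.49 in SmoM2 (difference 0.47, SE 0.09, limma adjusted p = 0.0436). Actg2, the enteric smooth muscle actin, differed by 0.69 (SE 0.13, adjusted p = 0.0405), and Myocd by 0.86 (SE 0.07, adjusted p = 0.00111). Acta2 lost the call without any 1 of the arrays other than SmoM2 2 (adjusted p up to 0.219), and Actg2 without wild type 1 or 2 or SmoM2 1 or 3 (adjusted p up to 0.194). The muscle actins are nearly identical as proteins. Their transcripts were not compared here, and whether the probe sets of Acta1 and Actc1 also bind transcripts of Acta2 and Actg2 was not tested. Differences between the change of one actin and that of another were not tested either.

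**Figure D3:**
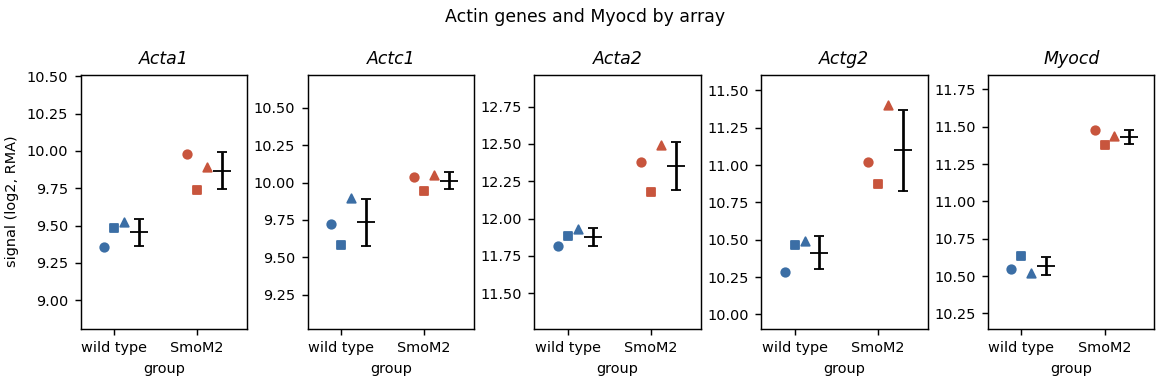
Signal (log2, RMA) of Acta1, Actc1, Acta2, Actg2 and Myocd on each array, with circles, squares and triangles for arrays 1, 2 and 3 of each group and the mean ± SD (n = 3) beside them. Each panel spans the same range, and in all 5 genes the SmoM2 points lie above the wild type points.

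The regulators of the myogenic lineage overlapped between the groups in all 6 genes. Myod1, the factor that commits cells to muscle, read 8.86, 8.77 and 9.05 in wild type and 9.24, 8.84 and 9.07 in SmoM2 (difference 0.16, 95% interval -0.09 to 0.41, limma adjusted p = 0.713). SmoM2 1 was the highest array, and SmoM2 2 lay below wild type 1. Myog, which drives terminal differentiation, read 8.39, 8.22 and 8.51 in wild type and 8.58, 8.43 and 8.59 in SmoM2 (difference 0.16, adjusted p = 0.622). Myf5, an early determination factor, was the dimmest of the 6, with signals from 7.41 to 7.73, and its difference was 0.04. Myf6, a late member of the same family, lay from 8.02 to 8.26, and Mymk, which fuses myoblasts, from 8.82 to 9.06. Mymk had the smallest difference of all 30 genes (-0.00, 95% interval -0.19 to 0.18). Pax7, a marker of muscle precursors that neural crest and neural tube also express, lay from 8.62 to 8.85, with a difference of 0.10.

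The promoter of Myog is shown as that of the factor that many sarcomere genes depend on, with its E boxes, the CANNTG motif that the myogenic factors bind, in capitals. The window covers the 250 bases before the start on the plus strand, chr1:134289754-134290003 (RefSeq, GRCm38.p6).
Myog: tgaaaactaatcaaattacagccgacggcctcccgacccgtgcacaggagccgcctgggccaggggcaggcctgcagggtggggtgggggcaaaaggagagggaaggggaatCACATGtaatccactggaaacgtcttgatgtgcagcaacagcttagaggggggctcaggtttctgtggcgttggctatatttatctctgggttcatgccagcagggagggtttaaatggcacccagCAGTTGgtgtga

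It held 2 E boxes, beginning 138 and 12 bases before the start. The motif reads the same on both strands and is common. Counted by gene, it was in 19 of the 23 members with a promoter at hand (82.6%) and in 69.3% of all genes with one. An exact MEF2 box was in the windows of Klhl41, Myh8 and Ttn (13.0% of the 23, against 3.42% of all genes with a window). Near matches, such as that in the Myog window, were not counted.

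Myosin heavy chains, the motors of the thick filament, were dim and overlapped between groups. Myh3, the embryonic form, lay from 7.56 to 7.79. Myh8, the perinatal form, lay from 7.94 to 8.32 and Myh7, the slow and cardiac form, from 8.29 to 8.64. Their differences were 0.06, 0.14 and 0.08, with limma adjusted p from 0.702 to 0.865.

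The myosin light chains, which bind the neck of the myosin head, went in both directions. Mylpf, the regulatory light chain of fast muscle, lay from 7.59 to 7.97, with a difference of -0.02. Myl1, an essential light chain of fast muscle and among the most abundant transcripts of young skeletal muscle, had the lowest mean of the list. It read 7.18, 7.31 and 7.14 in wild type and 7.30, 6.95 and 7.05 in SmoM2 (difference -0.11, 95% interval -0.33 to 0.11). Its groups overlapped, and it was the member with the largest negative change. Myl4, the light chain of embryonic muscle and of the atria, read 8.70, 8.66 and 8.80 in wild type and 8.84, 8.86 and 8.91 in SmoM2. Its groups touched closely without overlap, and the difference was 0.15 (SE 0.07, limma adjusted p = 0.501).

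Troponins, the calcium switch of the thin filament, all had positive changes that did not pass. The tropomyosin-binding subunits Tnnt1 (slow), Tnnt2 (cardiac and embryonic) and Tnnt3 (fast) differed by 0.05, 0.11 and 0.10. Tnnt3 read 9.35, 9.25 and 9.40 in wild type and 9.67, 9.19 and 9.43 in SmoM2. Its highest and lowest arrays were thus both from SmoM2. The inhibitory subunits Tnni1 (slow) and Tnni2 (fast) differed by 0.06 and 0.14. The calcium-binding subunits Tnnc1 (slow and cardiac) and Tnnc2 (fast) differed by 0.10 and 0.19. Tnnc2 had the largest change among the 7 troponins (1.14-fold, 95% interval -0.05 to 0.43 on the log2 scale, limma adjusted p = 0.620), and its 3 wild type arrays, at 8.26, 8.30 and 8.40, enclosed SmoM2 2 at 8.30.

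The large and accessory sarcomere proteins had a median difference of 0.02 over 5 genes, and the groups overlapped in each of them. Ttn, the spring of the sarcomere, lay from 7.65 to 7.97 and Neb, the ruler of the thin filament, from 7.53 to 7.91. Klhl41, which stabilises Neb, lay from 7.65 to 8.05. The myosin-binding proteins Mybph and Mybpc1 differed by 0.02 and -0.10. Mybph had the widest standard error of the list, 0.13, since SmoM2 1 was at 8.88 and SmoM2 2 at 8.33.

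The subunits of the muscle acetylcholine receptor, the ion channel of the nerve-muscle synapse, overlapped between the groups in all 3 genes. Chrna1, the ligand-binding subunit, lay from 7.58 to 7.92, Chrng, the fetal subunit, from 8.27 to 8.60, and Chrnd from 7.55 to 7.96. Their differences were 0.04, 0.06 and 0.09, and in each gene wild type 3 was among the 2 highest arrays. Ckm, which buffers ATP in muscle, read 8.69, 8.64 and 8.84 in wild type and 9.03, 8.78 and 8.85 in SmoM2 (difference 0.17, 95% interval -0.03 to 0.36, limma adjusted p = 0.585).

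A wider list of 50 other striated muscle genes had 48 on the array, of which 0 passed in either direction in limma and 2 reached an unadjusted p under 0.05. Over all genes 0.983% passed and 10.5% reached that unadjusted level. Changes were positive in 36 of the 48 (median 0.05). Smpx, a small protein of the muscle cytoskeleton, had the largest difference, 0.35 (SE 0.13, adjusted p = 0.366), followed by the fast myosin Myh4 at 0.21 and the myosin kinase Mylk2 at 0.20. These sizes rest on single arrays: without SmoM2 2 Smpx stood at 0.18, below Myh4 at 0.30, and without SmoM2 1 Myh4 stood at 0.13 and Mylk2 at 0.08. Most of this list was as dim as the members, with a median of 8.38. The brightest were Myo18b at 12.07, Eno3, a muscle form of enolase, at 11.08 and the transcription factor Mef2d at 10.78, and their differences were 0.07, -0.09 and 0.02. Myo18b had 20 probe sets and Mef2d 2, of which the brightest was taken, whereas Eno3 had 1.

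Heart markers were near the same signals. Of 15 cardiac genes 0 passed in limma (0 also at an unadjusted p under 0.05, against 10.5% of all genes), and the median change was 0.03. The atrial hormone Nppa lay from 8.01 to 8.24, the atrial light chain Myl7 from 8.27 to 8.40, the cardiac myosin Myh6 from 7.82 to 8.10 and the cardiac troponin Tnni3 from 8.29 to 8.56. Tbx20 and Myl3 had the largest differences of that list, -0.18 and 0.17. Hand1 and Nkx2-5, which the gut mesenchyme expresses as well, were the bright members of it, at 11.13 and 10.22.

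Of 15 smooth muscle genes 5 rose and 1 fell, with a median change of 0.24 and 9 genes (60.0%) whose SmoM2 arrays were all above wild type. Over all genes 0.326% passed as higher and 0.657% as lower, and 5.64% had SmoM2 arrays all above wild type. Besides Acta2, Actg2 and Myocd the light chain Myl9 (0.61) and the actin-binding protein Synpo2 (0.59) rose, while Des, the desmin gene that striated and smooth muscle share, fell by 0.54 (adjusted p = 0.0263). Des and Myl9 lost the call without wild type 1 or 2 or SmoM2 1 or 3 (limma adjusted p up to 0.150 for each), and Synpo2 without wild type 1 or SmoM2 3 (up to 0.095). Myocd kept it without any 1 array (up to 0.0168). The signals of the list, summed on the linear scale, ran from 14.24 to 14.32 (log2) in wild type and from 14.59 to 14.78 in SmoM2, without overlap. The part of smooth muscle RNA in the differences of Acta1 and Actc1 was not tested.

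Markers of other tissues near the stomach did not pass the threshold. Neuronal markers (4 genes measured), liver (4) and cartilage and sclerotome (5) had 0 genes past the threshold in limma, with 1 in each list at an unadjusted p under 0.05. Over all genes 0.983% passed and 10.5% reached the unadjusted level. The largest differences were -0.50 for the neuronal Stmn2, 0.61 for Alb and -0.40 for Ttr in liver, and -0.21 for Sox9 and 0.16 for Pax1 in cartilage and sclerotome. Of 7 genes of stomach epithelium and mesenchyme, the mesenchymal factor Foxf1 rose by 0.37, and the epithelial genes Cdh1 and Epcam fell by 0.58 and 0.48. Foxf1 lost the call without any 1 of the 6 arrays (limma adjusted p from 0.0598 to 0.219), Epcam without any 1 other than SmoM2 2 (up to 0.197), and Cdh1 without wild type 1 or SmoM2 3 (up to 0.0749).

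Most of the 30 genes shared parts of an order of the arrays within each group. SmoM2 1 was the highest SmoM2 array in 25 of the 30 genes and SmoM2 2 the lowest in 28. Among the wild type arrays, wild type 3 was the highest in 24 genes. Wild type 3 stood above SmoM2 2 in 25 of 30 genes. The median deviation of the members from their own means was -0.09, -0.14 and 0.08 in wild type 1, 2 and 3 and 0.17, -0.09 and 0.05 in SmoM2 1, 2 and 3. The range of a member over the 6 arrays had a median of 0.36, and that of Acta1 was 0.63.

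Dim genes at large shared parts of this order, with SmoM2 1 and wild type 3 highest, but the receptor genes did not share all of it. The receptor genes had median deviations of -0.00, -0.08 and 0.05 in wild type and 0.12, -0.08 and -0.01 in SmoM2, and the photoreceptor genes -0.06, -0.12 and 0.07 and 0.13, -0.05 and 0.03. The members and the photoreceptor genes stood higher in SmoM2 3 than in wild type 1, and the receptor genes did not. SmoM2 1 was the highest SmoM2 array in 78.0% of the receptor genes, against 83.3% of the members and 37.8% of all genes. All genes were split into 10 equal bins by mean signal, and bins 2 to 7 held 2, 8, 7, 8, 3 and 2 of the 30 members. In bin 3, with signals from 7.54 to 8.09, the median deviation was 0.11 in SmoM2 1 and -0.10 in wild type 2. This bin too stood higher in SmoM2 3 (0.01) than in wild type 1 (-0.03). In bin 8, which held 0 members, it was -0.12 in SmoM2 1 and 0.02 in wild type 2. Acta1 and Actc1 lie in bin 7, with signals from 9.53 to 10.05. Its median deviation was -0.11 in SmoM2 1 and 0.02 in wild type 2, which describes the bin as a whole and not these 2 genes. Among the SmoM2 arrays Acta1 was highest in SmoM2 1 and Actc1 in SmoM2 3, and both were lowest in SmoM2 2. The median change of bin 3 was 0.04, that of bin 7 was -0.04 and that of bin 8 was -0.05. The part of this array pattern in the changes of the muscle genes was not tested.

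**Figure D4:**
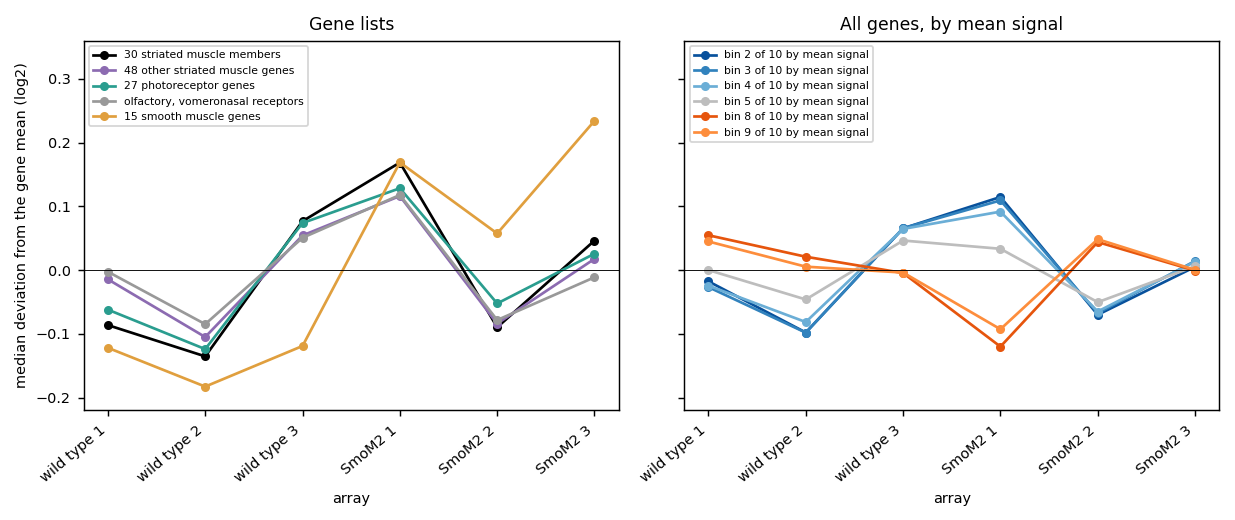
Median deviation of genes from their own mean over the 6 arrays (log2), for each array. The left panel shows the 30 members beside 4 other lists, and the right panel shows 6 of 10 equal bins of all genes ordered by mean signal, with lines that only join the points of a list. The members follow the dim lists, with SmoM2 1 at 0.17 and wild type 2 at -0.14, while bins 8 and 9 are lowest in SmoM2 1.

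Subtracting the median of the receptor genes from each array left a median change of 0.08 for the members, with 26 of 30 positive, and subtracting that of the photoreceptor genes left 0.03, with 21 positive. Acta1 had a difference of 0.41 and 0.36 in these fits (limma adjusted p = 0.227 and 0.340), and Actc1 0.27 and 0.22. Each subtraction moved the change of every gene by the same amount. These values therefore do not show what part of a change follows the array pattern. Without SmoM2 1 the median change of the members was 0.02, with 20 of 30 positive, and Acta1 stood at 0.36 (limma adjusted p = 0.165). With the mean Y-linked signal of each array in the model the median was -0.04, with 12 of 30 positive, and Acta1 stood at 0.32 (limma adjusted p = 0.838). These fits, except for the one without SmoM2 1, were chosen after the data were seen.

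Correlation was described over 6 arrays, which are 2 groups of 3 and share the scaling of RMA. Over the 435 pairs of members the median Pearson's r was 0.69 (median Spearman's rho 0.66), and 425 pairs were positive. After each group's mean was subtracted the median r was 0.75. The 351 pairs of photoreceptor genes had a median r of 0.59, and whether the members correlate more than such genes was not tested.

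**Figure D5:**
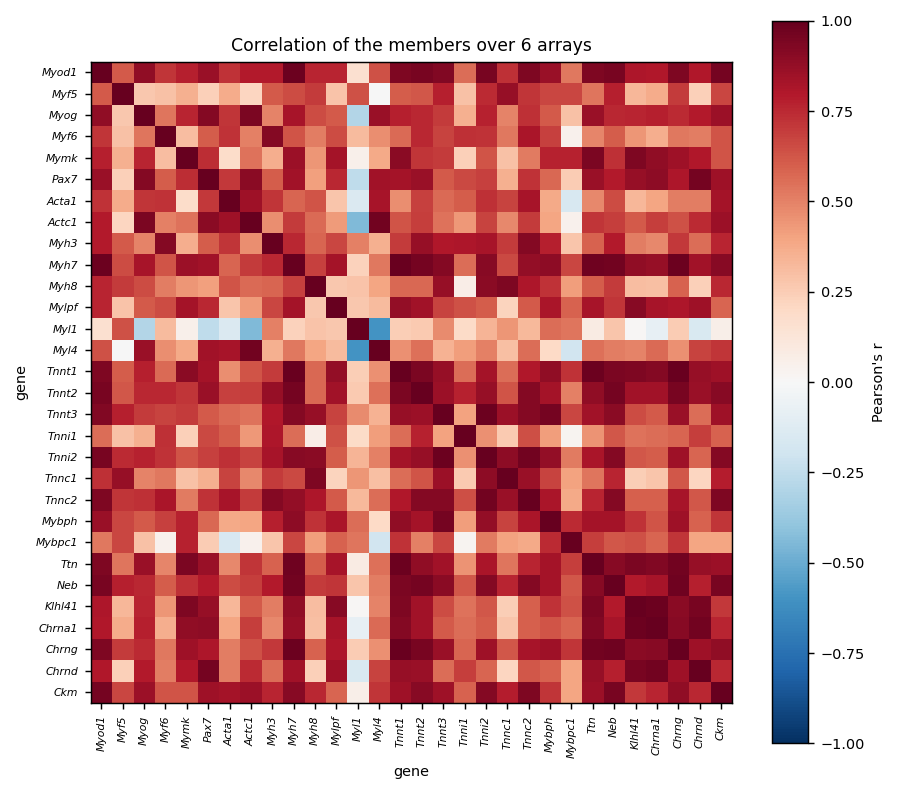
Pearson's r over the 6 arrays for each pair of the 30 genes, ordered by role, with red for positive and blue for negative values. Most cells are red (425 of 435 pairs are positive), and most of the pale or blue cells are in the rows of Myl1 and Mybpc1.

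Acta1 was set against each of the other 29 members. The median r was 0.61 (median rho 0.60), 3 of 29 had an exact permutation p under 0.05, and 0 had an adjusted p under 0.05 over the 29 relations. Actc1 had the highest pooled r, 0.84 (exact p = 0.0375, adjusted p = 0.349) and rho = 0.89 (exact p = 0.0333, adjusted p = 0.329), and r was 0.82 without SmoM2 1 and wild type 1, the 2 arrays farthest from the median of Acta1. Ckm had the same rho of 0.89 (r = 0.83, exact p = 0.0361). Within groups the r of Actc1 was 0.41, the lowest but for Myl4 at 0.21, while Myh3 stood at 0.99 and Tnnc2 at 0.92. Over the 29 genes the median r was 0.15 without those 2 arrays, so the pooled relation with the list as a whole rests on them, although leaving out the extremes of Acta1 also narrows its range. With each group's mean subtracted the median r over the 29 genes was 0.75. Since the values of Acta1 fall into 2 groups without overlap, its pooled r mixes the genotype with the spread inside a group.

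Set against the median of the receptor genes, all 30 members had a positive r, with a median of 0.75 (median rho 0.66). In this family of 30 relations 12 had an exact p under 0.05 and 0 an adjusted p under 0.05, with 0.0833 as the smallest. Tnnt3 had the highest, r = 0.93 (exact p = 0.00972, adjusted p = 0.0833) and rho = 0.83 (exact p = 0.0583, adjusted p = 0.194), and r was 0.70 without the 2 farthest arrays, SmoM2 1 and SmoM2 2. The 3 members whose groups did not overlap had r of 0.30 (Acta1, exact p = 0.546), 0.41 (Actc1, exact p = 0.414) and 0.18 (Myl4, exact p = 0.728). They were picked for groups that did not overlap, whereas those of the receptor median did, so a low pooled r partly follows from that choice. Within groups the r of Acta1, Actc1 and Myl4 was 0.66, 0.65 and 0.27. Tnnc2, Ckm and Myod1, which followed the actins in size of difference, had r of 0.75, 0.75 and 0.84 (exact p = 0.0847, 0.0819 and 0.0375). Differences between these r values were not tested. The 27 photoreceptor genes had a median r of 0.78 with the same reference.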

How the data were processed

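The data are 1 table of 35556 probe sets on 6 arrays, prepared from 6 ug of total RNA, per the labels. The authors deposited log2 signals, made with RMA and affy per the submitters' processing notes; no version was at hand. RMA draws arrays to a common distribution, so a change in total RNA would not show. Array medians ran from 8.56 to 8.62. The platform annotation gave 1 symbol to 21789 probe sets, several to 1621, and 12146 are unnamed here. Each of 19938 genes is represented by its probe set with the highest mean.

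SmoM2 was compared with wild type in limma 3.58.1 (R 4.3.3, lmFit and eBayes) over all genes with Benjamini-Hochberg adjustment at 0.05, and the fit was tested on simulated data. Intervals are 95% and p-values measure the spread between these arrays, whose number limits the precision. Promoters and gene symbols came from RefSeq (GRCm38.p6). The CArG and MEF2 boxes were searched as exact matches to their consensus and the E box as CANNTG, on both strands and with overlaps allowed. Correlations used exact permutation over all pairings, two-sided. Named genes were the 30 members, genes of the wider lists past the threshold, and otherwise the 3 with the largest change and the 3 with the highest signal (for cell type markers, the 2 with the largest change, and for heart its defining genes too). Members, lists and rules were chosen with earlier results of these data known. Hhip, Barx1, Hand1, Nkx2-5 and the photoreceptor list were chosen after values were seen. The alternatives were other scalings, probe set rules, variance models and array subsets.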

Additional observations from a re-analysis of the deposited data

How the results depend on the processing

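Over 20 alternatives, 13 of the 30 members kept the sign of their change throughout and 17 turned sign at least once, and none of these 17 passed the threshold in any alternative. The count of members past the threshold was 0, and 1 (Acta1) with the replicate block (adjusted p = 0.00801), among genes above the median probe set and with an intensity trend. With array weights, whose estimation stopped before it converged, it was 6 (Acta1, Actc1, Myog, Myf6, Myl4 and Tnnc2). Leaving out 1 array gave 0 to 1 (Acta1, without SmoM2 2). The labels' replicate numbers are not taken as pairs, since deviations of same-numbered arrays correlated at -0.10, 0.52 and 0.06. The median change of the members was 0.08 and ran from 0.02 to 0.15 without 1 array. With the mean Y-linked signal in the model, which partly follows genotype and cannot be fully separated from it, it was -0.041. That alternative, the subtraction of a receptor or photoreceptor median, the joint removal of SmoM2 1 and wild type 3 and the relation with the receptor median were chosen after seeing the data. Of all genes, 196 passed, 698 with the replicate block, 32 to 247 without 1 array, 120 when centred on the 75th percentile, 336 with an intensity trend, 4110 with array weights and 0 without moderation (limma fit, 1873 at an unadjusted p under 0.05). With the Y-linked covariate it was 22, with the receptor median subtracted 22 and with the photoreceptor median subtracted 16. The median r of the members with Acta1, 0.61, was 0.15 without the 2 farthest arrays and 0.75 within groups. With the receptor median in place of Acta1, the median r of the 30 members was 0.75. The causes were not tested. Dim signals limit these values, since most members lie near the range of receptor genes.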

Other observations

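The liver gene Alb had a wider spread between arrays than any of the muscle genes, and another order of arrays. It encodes albumin and read 10.31, 11.62 and 12.31 in wild type and 11.19, 12.58 and 12.31 in SmoM2 (SD 1.02 and 0.74, n = 3). SmoM2 1, the array with the highest median of the muscle genes, was the lowest SmoM2 array for Alb. Its difference between the groups was 0.61 (SE 0.48, limma adjusted p = 0.752). It was 0.06 without wild type 1, 1.06 without wild type 3, 1.03 without SmoM2 1 and 0.33 without SmoM2 2.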
